A study of Mus musculus with 12 samples.

Results

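The glucocorticoid receptor gene Nr3c1 and 9 genes long known to answer it were followed through adipogenic induction of 3T3-L1 cells, with and without knockdown of the RNA demethylase gene Fto. The members were the rows of the expression table with the symbols Nr3c1, Fkbp5, Tsc22d3, Per1, Sgk1, Zbtb16, Dusp1, Mt1, Mt2 and Hsd11b1, 10 of 55487 genes. No symbol was found more than once, and all 10 passed the filter on low values.

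The glucocorticoid receptor is held in the cytoplasm by heat shock proteins until a glucocorticoid binds it, and it then enters the nucleus and switches genes on or off. Its classic targets include inhibitors of its own signalling such as FKBP5, restraints on inflammation such as GILZ (the product of Tsc22d3) and DUSP1, the clock gene Per1, the kinase gene Sgk1 and the metallothioneins. In preadipocyte cultures the synthetic glucocorticoid dexamethasone is given together with IBMX, which raises cAMP, and insulin to start differentiation.

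3T3-L1 is a mouse fibroblast line that can become adipocytes. The cells were infected with a lentivirus for a control hairpin (shScram) or for a hairpin against Fto (shFto) and selected with puromycin. Which of the study's Fto hairpins the sequenced line carried is not named in the sources used here. The labels do not separate hairpins or infections. A difference given below as one with the knockdown therefore cannot be told apart from other differences between the lines. RNA was taken at 3 stages, from preadipocytes (Pre), during mitotic clonal expansion (MCE) and after differentiation (Diff), with 2 libraries for each of the 6 groups. Both lines received the same induction medium, and the medium that followed it held insulin without dexamethasone or IBMX. Rhein treatment and m6A immunoprecipitation, also part of the study, were not analysed here. The sources give collection days for rhein-treated cells only, so the time between the hormones and each collection is not known for these lines.

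The values are TPM, a measure scaled for gene length and to the same total in each library, which keeps no sequencing depth. Differences were tested with limma on the log2(TPM + 1) scale over all 15968 genes with at least 1 TPM in at least 2 libraries, and the adjusted p is that of Benjamini and Hochberg. A gene was counted as risen or fallen where the adjusted p was under 0.05. The labels do not say that the 2 libraries of a group came from separate cultures, so each p-value measures only spread between libraries. That spread was estimated per gene over all 6 groups together. In replicate 1 of shScram Diff the treatment entry names the knockdown while the title names shScram, and the title was followed. The 2 libraries of shScram Pre differed more from each other than those of any other group. Their correlation across genes, which are not independent replicates, was 0.939 against 0.990 to 0.993. Comparisons with shScram Pre therefore rest partly on the smaller spread of the other groups. Fitted on the Pre libraries alone, the knockdown in Pre gave 0 member calls in place of 6. Where a value is given without 1 library, the lone library left in its group is assumed to vary like the other groups, so p-values without a shScram Pre library rest on the smaller spread of the other groups. Fto was at 5.51 to 7.47 TPM in the 6 shFto libraries and at 52.7 to 73.5 TPM in the 6 shScram libraries.

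Markers of the cell states moved with stage and line as well. The summed level of 11 adipocyte markers was 133 to 192 TPM in shScram Pre and 1569 to 1581 TPM in shScram Diff. In shFto cells it was 268 to 299.6 TPM in Pre and 419 to 459.5 TPM at Diff. Of these markers, Lpl averaged 264 TPM in shFto Pre and 276 TPM in shFto Diff, and 143 and 318 TPM in shScram cells. Adipoq, which encodes adiponectin, averaged 74.8 TPM in shScram Diff and 4.86 TPM in shFto Diff, and Lep was at 0.0309 TPM or less in every library. The 8 markers of cycling cells summed to 348 to 415 TPM in shScram Pre and 291 to 298 TPM in shFto Pre, 902 to 954 TPM and 772 to 808 TPM at MCE, and 185 to 190.0 TPM and 323 to 342 TPM at Diff. At Diff 7 of these 8 markers were higher and 0 lower with the knockdown, while 8 of 10 tested adipocyte markers were lower and 0 higher. Of all genes tested, 11.9% were higher and 9.31% lower with the knockdown at Diff. The 8 fibroblast and preadipocyte markers were present in every group, at 6098 TPM or more. Muscle, endothelial and epithelial markers summed to at most 1.15 TPM in any library and macrophage markers to at most 11.0 TPM. In bulk RNA of this kind, fewer cells of a type and less RNA per cell cannot be told apart, and the part of these markers in the results that follow was not tested.

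**Figure D1:**
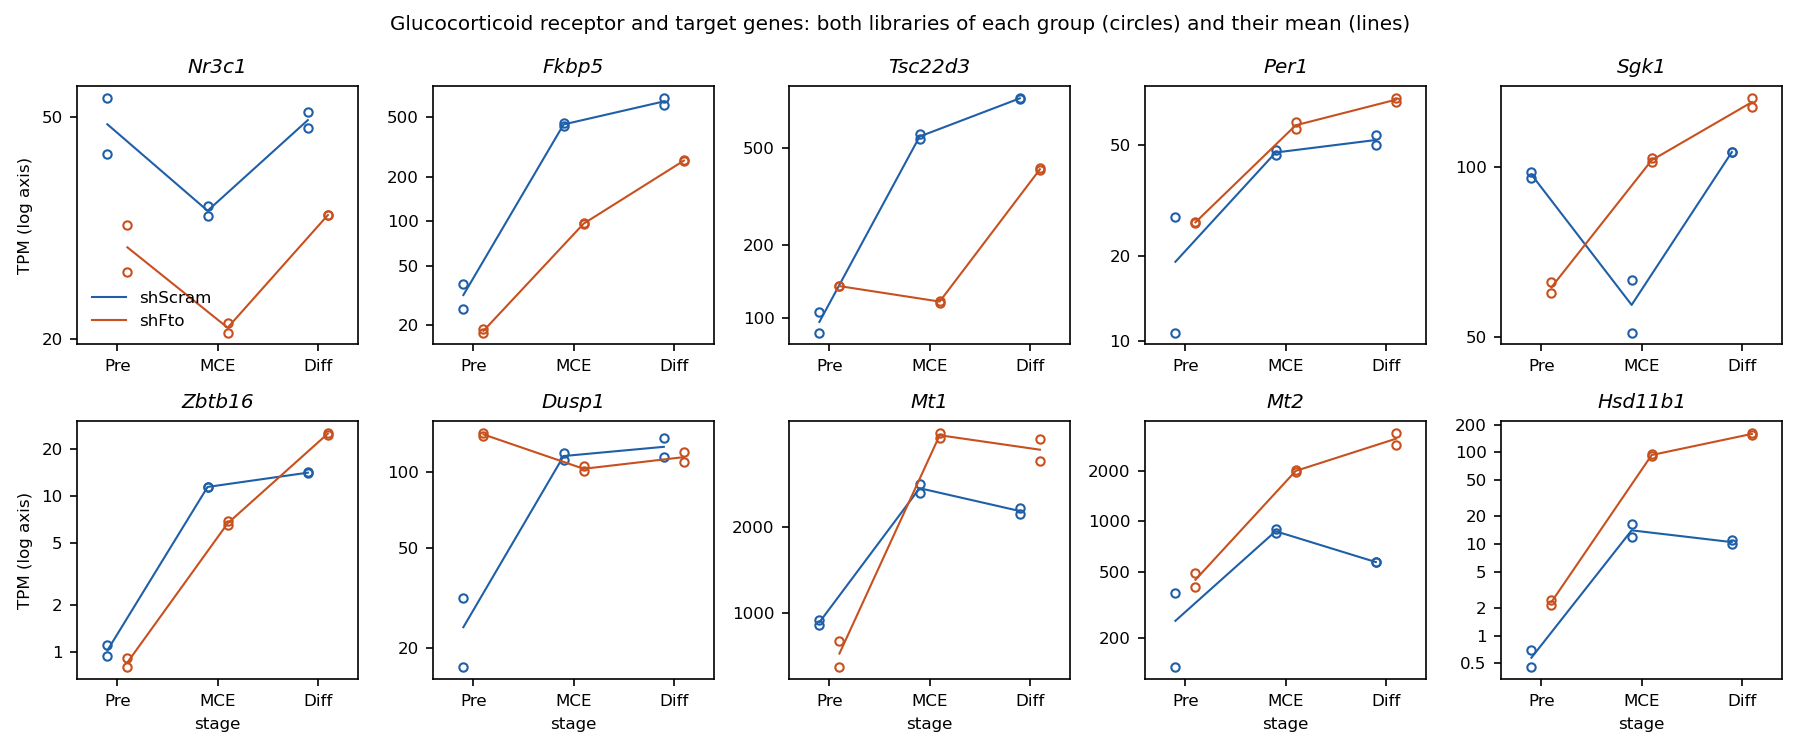
Levels of the receptor gene and its 9 targets in TPM on log axes at the Pre, MCE and Diff stages, with circles for the 2 libraries of each group and lines through the group means (blue, shScram; orange, shFto). Fkbp5 and Tsc22d3 lie lower in shFto cells at MCE and Diff, Hsd11b1 lies higher in shFto cells at every stage, and the 2 circles of shScram Pre stand far apart for Per1, Dusp1 and Mt2.

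In shScram cells, 8 of the 10 members rose from Pre to MCE and 2 fell. Of all genes tested, 12.2% rose and 26.9% fell in this comparison. The increases ran from 1.39 for Per1 to 3.80 for Fkbp5 on the log2 scale, and the genes that fell were Nr3c1 and Sgk1. In shFto cells 7 members rose and 1, Nr3c1, fell, beside 8.8% and 19.9% of all genes. Tsc22d3 and Dusp1 passed the test in shScram cells and not in shFto cells. Fitted on the shFto Pre and MCE libraries alone, all 10 members passed, with Tsc22d3 and Dusp1 as changes of -0.21 and -0.45 (adjusted p = 0.018 and 0.00268), while the shScram libraries alone gave 4 calls. Of the 15968 genes, 7999 passed in the fit on the shFto libraries and 504 in the fit on the shScram libraries. The median log2 fold change of all tested genes was -0.17 in shScram and -0.18 in shFto cells for this step, against medians of 2.12 and 1.59 for the members.

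**Figure D2:**
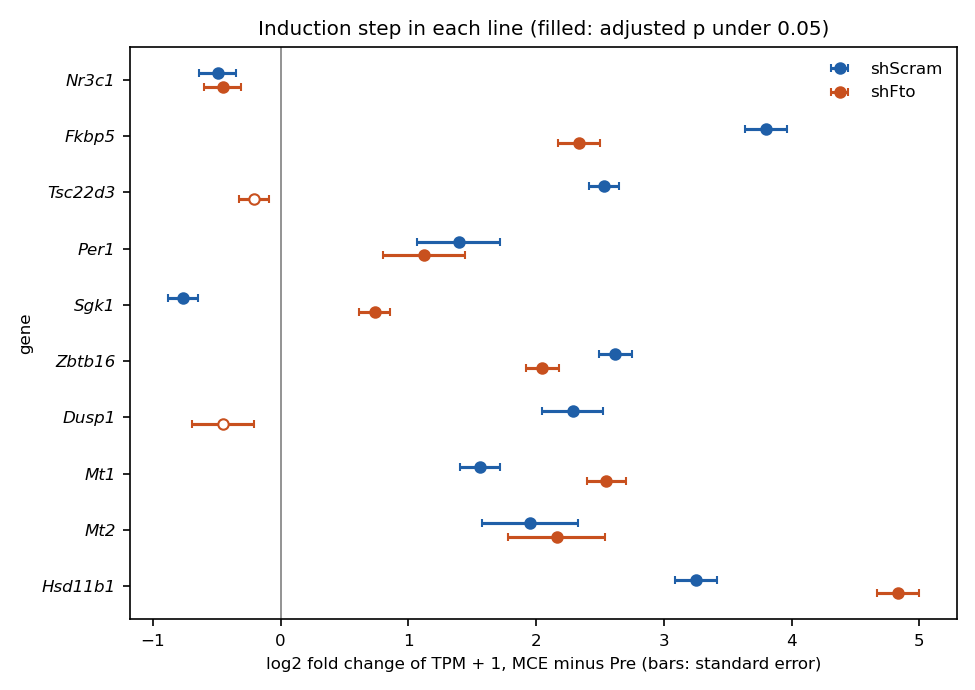
Log2 fold change of TPM + 1 from Pre to MCE for each member, with bars of 1 standard error (blue, shScram; orange, shFto; filled where the adjusted p was under 0.05). Tsc22d3 and Dusp1 lie to the right in shScram cells, at 2.53 and 2.28, and left of 0 in shFto cells, while Sgk1 lies left of 0 in shScram cells and to the right in shFto cells.

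Nr3c1 (ENSMUSG00000024431, chromosome 18, 39410545 to 39519421, minus strand, GRCm38) encodes the receptor itself. Its level in shScram cells was 54.1 and 42.9 TPM in Pre, 34.6 and 33.3 TPM at MCE, and 47.7 and 51.0 TPM at Diff. In shFto cells it was 26.4 and 32.0 TPM in Pre, 21.4 and 20.5 TPM at MCE, and 33.3 TPM in both Diff libraries. Both lines thus had their lowest level at MCE, and every shFto library lay below every shScram library of the same stage. The shFto mean was 60.2%, 61.8% and 67.6% of the shScram mean at Pre, MCE and Diff. Averaged over stages Nr3c1 fell by 0.64 on the log2 scale with the knockdown (SE 0.08, adjusted p = 0.000402), and this held in all 21 alternative settings.

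The dip of Nr3c1 at MCE was less firm. From Pre to MCE it fell by 0.49 in shScram cells (adjusted p = 0.0249) and by 0.45 in shFto cells (adjusted p = 0.0433). Under median-ratio scaling the adjusted p was 0.188 and 0.324, and after a correction for GC content the change in shScram cells was -0.02. Leaving out replicate 1 or 2 of shScram MCE gave adjusted p of 0.0783 and 0.119 in shScram cells, and the fall in shFto cells was kept in 3 of the 12 settings that left out 1 library, with 0.264 without replicate 2 of shFto Pre. From MCE to Diff Nr3c1 rose by 0.53 in shScram cells (adjusted p = 0.0279) and by 0.65 in shFto cells (adjusted p = 0.0109). Median-ratio scaling gave 0.264 and 0.0649 for that rise. The adjusted p was 0.157 without replicate 2 of shScram Diff and 0.0789 without replicate 2 of shFto MCE.

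Genes for the proteins that hold the receptor in its hormone-binding state were read next. Of 14 chaperone genes, 1 rose and 6 fell from Pre to MCE in shScram cells, while 0 rose and 1 fell in shFto cells, beside 12.2% and 26.9% of all genes in shScram and 8.8% and 19.9% in shFto cells. Ptges3, which encodes the p23 cochaperone, fell by 0.68 in shScram cells (adjusted p = 0.00295), and its change differed between lines by 0.84 (adjusted p = 0.0293). Hsp90aa1, which encodes the inducible HSP90, was at 489 and 293 TPM in shScram Pre and 232 and 211 TPM in shScram MCE, and the 2 Pre libraries differed more from each other than the lower of them did from MCE. The median over the 14 genes was -0.18 in shScram cells, near that of all genes tested, and -0.02 in shFto cells, above that of all genes tested. Among 12 coactivators and corepressors, Nrip1, which encodes the corepressor RIP140, rose by 1.55 from Pre to MCE in shScram cells (adjusted p = 0.00048) and by 0.93 in shFto cells (adjusted p = 0.00759). At Diff, Nrip1 was 1.52 lower in shFto cells (adjusted p = 0.000859). In shScram cells 3 of these 12 genes fell at the first step, near the 26.9% of all genes that did.

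Fkbp5 (ENSMUSG00000024222, chromosome 17, 28399094 to 28517527, minus strand) encodes an immunophilin of the receptor complex that lowers hormone binding, and its induction is a common readout of receptor activity. It held 25.8 and 37.9 TPM in shScram Pre, 458 and 439 TPM at MCE, and 678 and 603 TPM at Diff. The shFto libraries held 17.8 and 18.7 TPM, 96.8 and 95.9 TPM, and 258 and 254 TPM at those stages. No group overlapped another, and the mean rose 14.1-fold from Pre to MCE in shScram cells and 5.28-fold in shFto cells. On the log2 scale the rise was 3.80 (SE 0.16, adjusted p = 1.16e-06) against 2.34 (adjusted p = 1.8e-05). The difference between lines in that rise was -1.46 (SE 0.23, adjusted p = 0.0101). It was not called when any of 4 single libraries was left out, with an adjusted p of 0.0532 without replicate 1 of shScram MCE, 0.0529 without replicate 2 of shFto Pre, 0.0536 without replicate 1 of shFto MCE and 0.0586 without replicate 2 of shFto MCE.

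From MCE to Diff Fkbp5 rose further by 1.40 in shFto cells (adjusted p = 0.000529), while the change in shScram cells was 0.51 (adjusted p = 0.0504). The knockdown mean was 57.4% of the control mean in Pre, 21.5% at MCE and 39.9% at Diff. In Pre this difference, -0.74, had an adjusted p of 0.0138, which became 0.0883 without replicate 1 of shFto Pre and 0.0609 without replicate 2, and the difference was -0.48 without replicate 2 of shScram Pre. At MCE and Diff it held in all 21 alternative settings, at -2.21 (adjusted p = 5.78e-05) and -1.32 (adjusted p = 0.000682).

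Tsc22d3 (ENSMUSG00000031431, chromosome X, 140539528 to 140600659, minus strand) encodes GILZ, a leucine zipper protein that restrains NF-kB and AP-1. The shScram libraries held 87.0 and 105 TPM in Pre, 569 and 546 TPM at MCE, and 797 and 806 TPM at Diff. The shFto libraries held 135 TPM in both Pre samples, 118 and 115 TPM at MCE, and 405 and 413 TPM at Diff. The shScram mean thus went up 5.80-fold from Pre to MCE, whereas both shFto MCE libraries lay slightly below both shFto Pre libraries. In numbers, the first step was 2.53 in shScram cells (SE 0.12, adjusted p = 1.47e-06) and -0.21 in shFto cells (SE 0.12, adjusted p = 0.22). The change in shFto cells was called without replicate 1 or 2 of shScram Pre (adjusted p = 0.0104 for each) and was 0.01 under median-ratio scaling. The difference between lines was -2.74 (SE 0.16, adjusted p = 0.000182) and held in all 21 alternative settings.

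The rise of Tsc22d3 in shFto cells came at the next step. From MCE to Diff it rose by 1.80 in shFto cells (adjusted p = 3.91e-05) and by 0.52 in shScram cells (adjusted p = 0.0123), a difference of 1.28 between lines (adjusted p = 0.0052). The smaller rise in shScram cells was not called under median-ratio scaling (0.27, adjusted p = 0.0835), nor without replicate 2 of shScram MCE (adjusted p = 0.0862) or replicate 1 or 2 of shScram Diff (adjusted p = 0.0644 and 0.0798). The knockdown mean was 140% of the control mean in Pre, 20.9% at MCE and 51.0% at Diff. The higher level in Pre, 0.49 on the log2 scale, was not called without replicate 1 or 2 of shFto Pre (adjusted p = 0.0921 and 0.0805).

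Per1 (ENSMUSG00000020893, chromosome 11, 69095217 to 69109960, plus strand) encodes a repressor of the circadian clock that answers glucocorticoids and cAMP. Its 2 shScram Pre libraries differed widely, at 10.7 and 27.6 TPM, and were followed by 46.1 and 47.9 TPM at MCE and 54.1 and 50.1 TPM at Diff. The shFto libraries held 26.4 and 26.6 TPM, 60.6 and 57.0 TPM, and 71.4 and 73.8 TPM. Per1 rose from Pre to MCE by 1.39 in shScram cells (adjusted p = 0.00962) and by 1.12 in shFto cells (adjusted p = 0.0295), and the difference between lines was -0.27 (95% interval -1.31 to 0.76). Without replicate 1 of shScram Pre the rise in shScram cells was 0.75. It was not called without replicate 2 of shScram MCE (adjusted p = 0.0579), and the rise in shFto cells was not called without any one of the 4 shFto Pre and MCE libraries (adjusted p up to 0.133). The knockdown difference was 0.59 in Pre, 0.32 at MCE and 0.47 at Diff, none of them past the test, and in Pre it was -0.06 without replicate 1 of shScram Pre and 1.23 without replicate 2 (adjusted p = 1.09e-06).

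Sgk1 (ENSMUSG00000019970, chromosome 10, 21882184 to 21999903, plus strand) encodes a kinase of the insulin and mineralocorticoid pathways. Its promoter windows are shown because 1 of them held the only full match of a receptor element among the members searched. RefSeq gave 6 start sites for Sgk1 and 16 for the 8 members searched. Each window ran from 250 bases before the start to 50 after. The receptor element searched was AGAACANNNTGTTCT, which reads the same on both strands, and 3 of 32851 mouse windows held it (0.00913%). The half-site AGAACA, searched on both strands and contained in the full element, was in 19% of windows. Among the members searched it was found in 3 of the Sgk1 windows and in 1 of Tsc22d3. The Sgk1 stretch below lies at chr10:21993640-21993919 (GRCm38.p6, plus strand, RefSeq), with the matches in capitals and its last 30 bases beginning at the start site. The full element spans bases -189 to -175, counted from 0 at the start site.
Sgk1: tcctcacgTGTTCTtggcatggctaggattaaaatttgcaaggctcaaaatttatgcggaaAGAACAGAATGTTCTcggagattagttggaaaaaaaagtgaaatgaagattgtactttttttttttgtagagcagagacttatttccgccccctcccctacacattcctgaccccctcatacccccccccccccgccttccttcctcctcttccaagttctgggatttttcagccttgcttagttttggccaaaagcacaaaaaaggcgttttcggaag
A match to these letters is a description of the sequence and not a site that was measured.

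The level of Sgk1 moved in opposite directions at induction. It was 95.8 and 98.2 TPM in shScram Pre, 63.1 and 51.0 TPM at MCE, and 106 TPM in both Diff libraries. In shFto cells it was 60.0 and 62.6 TPM, then 102 and 104 TPM, then 128 and 133 TPM. From Pre to MCE it fell by 0.76 in shScram cells (SE 0.12, adjusted p = 0.00143) and rose by 0.74 in shFto cells (SE 0.12, adjusted p = 0.00187), and no library of one stage reached those of the other. The change differed between lines by 1.50 (SE 0.17, adjusted p = 0.00186), which held in all 21 alternative settings. Sgk1 was 0.65 lower in shFto cells in Pre (adjusted p = 0.00653), 0.85 higher at MCE (adjusted p = 0.00161) and 0.29 apart at Diff (adjusted p = 0.123). Without replicate 1 of shFto Pre the difference in Pre had an adjusted p of 0.0551, and after GC correction the fall in shScram cells was 0.46. Sgk1 rose from MCE to Diff by 0.89 in shScram cells (adjusted p = 0.0012).

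Zbtb16 (ENSMUSG00000066687, chromosome 9, 48654297 to 48836222, minus strand) encodes the zinc finger repressor PLZF. It held about 1 TPM or less before induction, with 0.938 and 1.10 TPM in shScram Pre and 0.912 and 0.792 TPM in shFto Pre. At MCE it held 11.4 TPM in both shScram libraries and 6.85 and 6.47 TPM in shFto cells. At Diff the order was reversed, since the shFto libraries held 24.7 and 25.5 TPM and the shScram libraries 14.3 and 13.9 TPM. Each group was separate from the rest. The rise from Pre to MCE was 2.62 in shScram cells (adjusted p = 2.05e-06) and 2.05 in shFto cells (adjusted p = 9.83e-06), on a scale that understates changes at this level. From MCE to Diff Zbtb16 rose by 1.77 in shFto cells (adjusted p = 5.79e-05) and changed by 0.28 in shScram cells (adjusted p = 0.143), and the difference between lines, 1.49, held in all 21 alternative settings (adjusted p = 0.0042). It was 0.70 lower with the knockdown at MCE (adjusted p = 0.00617, or 0.0639 without replicate 2 of shFto MCE) and 0.79 higher at Diff (adjusted p = 0.00278).

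Dusp1 (ENSMUSG00000024190, chromosome 17, 26505590 to 26562128, minus strand) encodes a phosphatase that inactivates the p38 and JNK kinases. Its shScram libraries held 16.7 and 31.6 TPM in Pre, 119.8 and 112 TPM at MCE, and 138 and 115 TPM at Diff. The shFto libraries were already at 144 and 139 TPM in Pre, and held 101 and 106 TPM at MCE and 109.6 and 120.2 TPM at Diff. From Pre to MCE Dusp1 rose by 2.28 in shScram cells (SE 0.24, adjusted p = 0.000157), whereas the change in shFto cells was -0.45 (SE 0.24, adjusted p = 0.203). The difference in Pre was 2.57 (adjusted p = 0.000299), and at MCE and Diff it was -0.17 and -0.13, with 95% intervals of -0.71 to 0.38 and -0.68 to 0.41. The first step differed between lines by -2.74 (SE 0.34, adjusted p = 0.00314) and held in all 21 alternative settings. Without replicate 1 or 2 of shScram Pre, the change of -0.45 in shFto cells had an adjusted p of 0.00185 and 0.00188. Of its 3311 exonic bases, 11 are shared with Ergic1 on the other strand. The single Dusp1 window held no receptor half-site and 3 matches of the cAMP response half-site TGACG (its reverse CGTCA included), 2 of which overlap, a motif found in 20.8% of all windows.

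**Figure D3:**
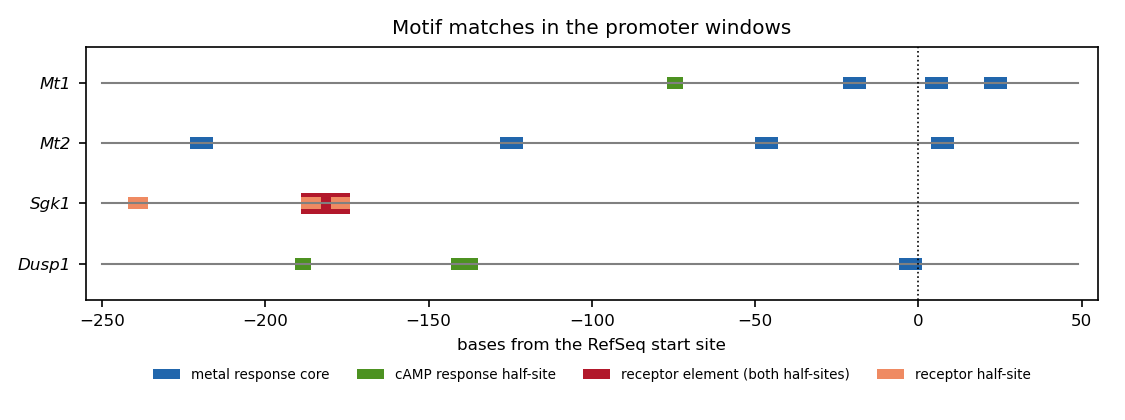
Positions of motif matches in bases from the RefSeq start site (dotted line) for the promoter windows of Mt1 and Mt2, the Sgk1 window with the full receptor element, and the Dusp1 window. Metal response cores (blue) lie in the Mt1, Mt2 and Dusp1 windows and cAMP half-sites (green) in the Mt1 and Dusp1 windows, and the Sgk1 element (dark red) lies at -189 to -175 with half-sites in orange.

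Mt1 (ENSMUSG00000031765, chromosome 8, 94179082 to 94180327, plus strand) and Mt2 (ENSMUSG00000031762, chromosome 8, 94172664 to 94173568, plus strand) are neighbouring genes for metallothioneins, small cysteine-rich proteins that bind zinc and copper and answer metals as well as glucocorticoids. Their promoters are shown with their matches of the metal response core. These were searched on both strands as TGCACNC, found in 12.6% of all windows, and TGCGCNC, found in 15.4%. The Mt1 window held 3 matches and the Mt2 window 4. Those at bases 2 to 8 and 20 to 26 of Mt1 and 4 to 10 of Mt2 lie after the start site, within the transcript. All are in capitals in the stretches below. They lie at chr8:94178839-94179118 for Mt1 and chr8:94172368-94172647 for Mt2 (GRCm38.p6, plus strand, RefSeq), each ending 30 bases into the transcript.
Mt1: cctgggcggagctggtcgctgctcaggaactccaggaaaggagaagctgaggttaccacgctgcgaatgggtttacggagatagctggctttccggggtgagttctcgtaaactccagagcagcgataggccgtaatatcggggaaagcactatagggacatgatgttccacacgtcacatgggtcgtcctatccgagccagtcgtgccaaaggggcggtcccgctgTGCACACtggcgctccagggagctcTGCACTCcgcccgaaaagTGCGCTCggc
Mt2: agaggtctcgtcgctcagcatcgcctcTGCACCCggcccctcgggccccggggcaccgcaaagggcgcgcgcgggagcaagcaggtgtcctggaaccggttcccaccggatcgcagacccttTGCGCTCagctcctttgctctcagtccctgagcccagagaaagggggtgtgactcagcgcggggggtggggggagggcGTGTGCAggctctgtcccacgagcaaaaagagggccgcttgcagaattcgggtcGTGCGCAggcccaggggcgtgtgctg
Neither window held a receptor half-site. The cores were not particular to these genes, since windows of Per1, Sgk1, Dusp1 and Hsd11b1 held 1 match each.

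The coding sequences of both metallothioneins are shown because near-identical copies can share reads. They have 186 bases each and differ at 38 positions, in capitals below, so that 79.6% of the bases are identical.
Mt1 coding: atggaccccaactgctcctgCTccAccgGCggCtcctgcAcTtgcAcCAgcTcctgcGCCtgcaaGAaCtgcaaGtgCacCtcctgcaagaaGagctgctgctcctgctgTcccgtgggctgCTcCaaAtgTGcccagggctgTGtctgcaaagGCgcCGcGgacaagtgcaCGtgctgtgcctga
Mt2 coding: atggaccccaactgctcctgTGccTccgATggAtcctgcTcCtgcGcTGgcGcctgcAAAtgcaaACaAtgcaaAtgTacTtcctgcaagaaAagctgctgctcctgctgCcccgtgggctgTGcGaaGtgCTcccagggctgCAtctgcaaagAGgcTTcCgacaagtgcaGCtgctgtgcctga
The longest identical run within the coding sequence was 20 bases, and no run of 40 bases was shared by any Mt1 and Mt2 transcripts of GENCODE M21. Mt2 also shares 432 of its 588 exonic bases (73.5%) with the antisense gene Gm45774, which held 0.479 to 23.7 TPM, and how strand entered the counting is not given in the sources used here.

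Mt1 had the highest TPM of the 10 members in every library. Its shScram libraries held 944 and 909 TPM in Pre, 2643 and 2832 TPM at MCE, and 2222 and 2329.9 TPM at Diff. The shFto libraries held 796 and 644 TPM in Pre, 4290.2 and 4107 TPM at MCE, and 4059 and 3413 TPM at Diff. The shFto libraries thus lay below the shScram libraries in Pre (-0.37, adjusted p = 0.0979) and above them at both later stages, with no overlap. The rise from Pre to MCE was 1.56 in shScram cells (adjusted p = 0.00011) and 2.55 in shFto cells (adjusted p = 8.26e-06). The difference between lines was 0.99 (adjusted p = 0.0377), a call kept in 7 of 21 settings and in 2 of the 12 that left out 1 library, with an adjusted p up to 0.155 without replicate 1 of shFto MCE. With the knockdown Mt1 was 0.62 higher at MCE (adjusted p = 0.0249) and 0.71 higher at Diff (adjusted p = 0.0118). The first lost its call without any single one of the 4 MCE libraries (adjusted p up to 0.153), and the second without replicate 1 or 2 of shScram Diff or replicate 1 of shFto Diff (adjusted p up to 0.101).

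Mt2 in shScram cells was at 134 and 374 TPM in Pre, 896 and 845 TPM at MCE, and 570.5 and 569 TPM at Diff. In shFto cells it was at 491 and 403 TPM, then 2025 and 1958 TPM, then 3373 and 2826 TPM. In all 3 stages the shFto libraries lay above the shScram libraries, and the gap was widest at Diff. Mt2 rose from Pre to MCE by 1.95 in shScram cells (adjusted p = 0.0042) and by 2.16 in shFto cells (adjusted p = 0.00276). The rise in shScram cells was 1.21 without replicate 1 of shScram Pre. The knockdown difference was 0.98 in Pre (adjusted p = 0.078), 1.19 at MCE (adjusted p = 0.0606) and 2.44 at Diff (adjusted p = 0.00212). In Pre it was 0.25 without replicate 1 and 1.72 without replicate 2 of shScram Pre, the latter with an adjusted p of 1.56e-06, and at MCE the adjusted p was 1.53e-05 and 1.54e-05 without them.

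The balance of the 2 metallothionein transcripts differed between lines. The ratio of Mt1 to Mt2 was 2.95 and 3.35 in shScram MCE and 3.90 and 4.09 in shScram Diff. In shFto cells it was 1.62 and 1.60 in Pre, 2.12 and 2.1 at MCE, and 1.20 and 1.21 at Diff. The shScram Pre libraries gave 7.03 and 2.43, so every shFto ratio lay below every shScram ratio. Of 5 other tested genes of metal handling, 2 rose and 1 fell from Pre to MCE in shScram cells, and 1 rose and 1 fell in shFto cells, beside 12.2% and 26.9% of all genes in shScram and 8.8% and 19.9% in shFto cells. Slc39a14, a zinc and iron importer gene, rose by 2.38 in shScram (adjusted p = 3.47e-05) and by 1.94 in shFto cells (adjusted p = 0.000117). Hmox1, which encodes heme oxygenase, fell by 2.69 and 1.65 (adjusted p = 3.99e-05 and 0.000655), and was 2.31 higher with the knockdown at MCE (adjusted p = 0.000189).

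Hsd11b1 (ENSMUSG00000016194, chromosome 1, 193221634 to 193264075, minus strand) encodes the enzyme that turns inactive cortisone or 11-dehydrocorticosterone into active glucocorticoid inside the cell. It was near absent in shScram Pre, at 0.696 and 0.450 TPM, and held 11.9 and 16.4 TPM at MCE and 10.0 and 11.0 TPM at Diff. In shFto cells it was at 2.18 and 2.47 TPM in Pre, 92.1 and 95.4 TPM at MCE, and 154 and 165 TPM at Diff. Every shFto group lay above the shScram group of its stage, by 4.06-fold in Pre, 6.64-fold at MCE and 15.2-fold at Diff. The log2 differences were 1.08 (adjusted p = 0.00314), 2.66 (adjusted p = 2.4e-05) and 3.80 (SE 0.17, adjusted p = 1.82e-06). The rise from Pre to MCE was 3.25 in shScram (adjusted p = 2.53e-06) and 4.83 in shFto cells (adjusted p = 6.43e-07). The difference between lines in that rise, 1.58 (adjusted p = 0.0073), was 0.87 with a pseudocount of 0.1 and was then not called (adjusted p = 0.155). 

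Hsd11b1 rose further from MCE to Diff in shFto cells, by 0.76 (adjusted p = 0.0102), and changed by -0.38 in shScram cells (adjusted p = 0.13). The difference of 1.14 between lines at that step had an adjusted p of 0.0436, and only 3 of the 12 settings that left out 1 library kept it (adjusted p up to 0.187). The rise in shFto cells was not called without replicate 1 or 2 of shFto MCE or of shFto Diff (adjusted p up to 0.0771). H6pd, which supplies the cofactor of this enzyme, rose by 1.61 from Pre to MCE in shScram cells (adjusted p = 0.00697). It was at 10.6 and 28.8 TPM in shScram Pre and at 30.0 and 28.9 TPM in shFto Pre. Hsd11b2, whose product inactivates glucocorticoid, was at most 1.45 TPM in any library, and Nr3c2, the mineralocorticoid receptor gene, was at 2.97 to 7.27 TPM. Among the 6 genes of hormone availability, 1 rose and 2 fell from Pre to MCE in shScram cells, and 0 rose and 3 fell in shFto cells, beside 12.2% and 26.9% of all genes in shScram and 8.8% and 19.9% in shFto cells. Abcb1b, an efflux pump gene that can export glucocorticoids, was among those that fell in both lines, by 0.76 and 0.74.

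**Figure D4:**
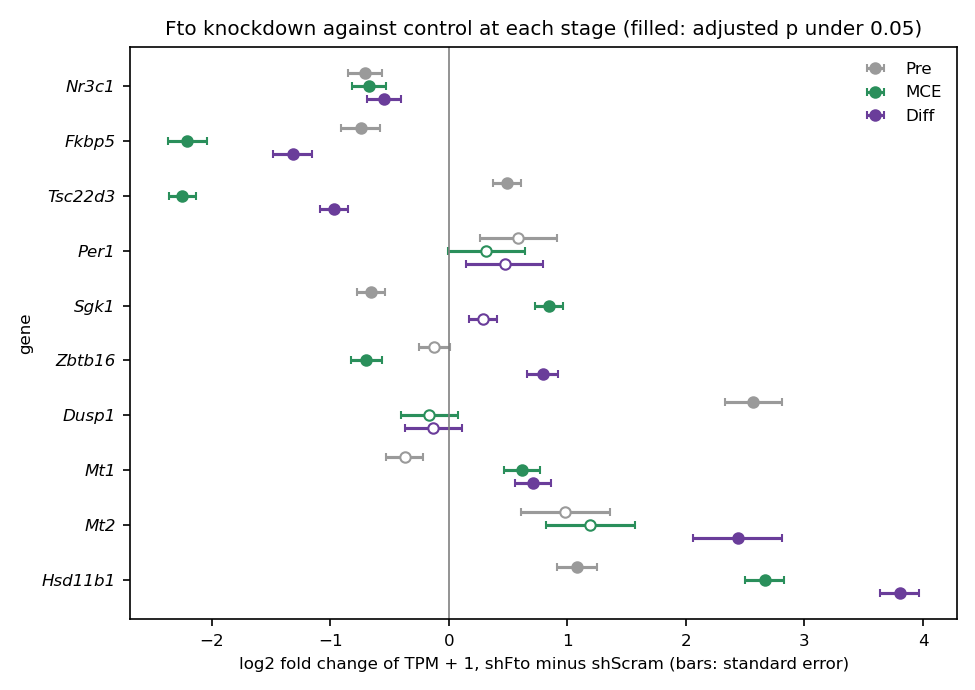
Log2 difference of TPM + 1 between shFto and shScram cells at Pre (grey), MCE (green) and Diff (purple) for each member, with bars of 1 standard error and filled points where the adjusted p was under 0.05. Nr3c1 lies left of 0 at every stage, Hsd11b1 right of 0 at every stage, and Dusp1 apart from 0 in Pre alone, at 2.57.

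Across the members, the knockdown contrast passed in both directions at each stage. In Pre 3 members were higher and 3 lower in shFto cells, beside 15.9% and 12.3% of all genes tested. At MCE 3 were higher and 4 lower, beside 10.5% and 7.26%, and at Diff 4 were higher and 3 lower, beside 11.9% and 9.31%. With the stages averaged, 4 were higher (Hsd11b1, Mt2, Dusp1 and Mt1) and 3 lower (Fkbp5, Tsc22d3 and Nr3c1), beside 24.5% and 18.3%. The averaged difference of Mt1 was 0.32 (adjusted p = 0.0196), and it was not called without replicate 1 of shScram MCE, shScram Diff, shFto Pre, shFto MCE or shFto Diff (adjusted p up to 0.0618). Nr3c1 lost its call without any one of the 4 MCE libraries at MCE (adjusted p up to 0.0951), without any one of the 4 Diff libraries at Diff (adjusted p up to 0.149), and in Pre without replicate 1 of shFto Pre (adjusted p = 0.0814). After GC correction the averaged difference of Mt1 was 0.11 (adjusted p = 0.506).

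At the later step fewer members were called in the reported fit, and fewer of all genes as well. This order depended on the fit. Fitted on the libraries of each step alone, shScram cells gave 4 member calls at the first step and 5 at the later. In shFto cells such fits gave 10 and 8. From MCE to Diff 3 members rose and 0 fell in shScram cells, beside 20% and 5.22% of all genes, and 5 rose and 0 fell in shFto cells, beside 20.2% and 6.48%. Over the whole course from Pre to Diff, 8 rose and 0 fell in shScram cells, beside 13.9% and 13.2%, and 8 rose and 0 fell in shFto cells, beside 9.84% and 8.49%. The members that did not pass over the whole course were Nr3c1 and Sgk1 in shScram cells (0.03 and 0.13) and Nr3c1 and Dusp1 in shFto cells (0.19 and -0.30). Sgk1 rose by 1.08 in shFto cells (adjusted p = 0.000349). The largest changes were those of Hsd11b1 in shFto cells, 5.59 (adjusted p = 2.82e-07), and of Fkbp5 in shScram cells, 4.31 (adjusted p = 5.31e-07).

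The test of the difference between lines was passed by 6 of the 10 members for the step from Pre to MCE, against 5.11% of all genes. Both counts moved with the shScram Pre libraries. Without replicate 2 of that group 9 members and 8359 of the 15968 genes passed in place of 816, and without replicate 1 it was 7 members and 2257 genes, while leaving out a library of another group gave 252 to 500 genes. The step was smaller in shFto cells for Fkbp5, Tsc22d3 and Dusp1 and larger for Sgk1, Mt1 and Hsd11b1. For the step from MCE to Diff, 3 members passed, Tsc22d3, Zbtb16 and Hsd11b1, each with the larger step in shFto cells, against 2.49% of all genes. Without replicate 1 or 2 of shScram Pre 6 members passed there, beside 2737 and 2739 genes in place of 397. These steps share the MCE libraries, as the first step and the knockdown contrasts share the Pre and MCE libraries.

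Beyond the members, 26 further genes known to be induced by glucocorticoids were described. Of the 25 tested, 14 rose and 2 fell from Pre to MCE in shScram cells, and 13 rose and 5 fell in shFto cells. Of all genes 12.2% rose and 26.9% fell in shScram and 8.8% and 19.9% in shFto cells. The medians were 1.21 and 0.67, beside -0.17 and -0.18 for all genes. Lcn2, which encodes lipocalin 2, rose by 7.45 in shScram cells (adjusted p = 1.84e-07), from 3.86 and 2.76 TPM to 717 and 776 TPM, and by 5.33 in shFto cells (adjusted p = 4.83e-07). Glul, the glutamine synthetase gene, rose by 4.62 in shScram cells (adjusted p = 2.9e-07) to 370.5 and 379.9 TPM and by 2.74 in shFto cells (adjusted p = 3.25e-06) to 95.4 and 93.6 TPM. Rgs2, a regulator of G protein signalling, rose by 4.49 in shFto cells (adjusted p = 4.71e-07), from 18.6 and 18.3 TPM to 421 and 452 TPM. In shScram cells Rgs2 went from 11.5 and 8.33 TPM to 193 and 188 TPM. Anxa1, which encodes annexin A1, fell in both lines, by 1.30 and 1.26 (adjusted p = 0.000188 and 0.000246).

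With the knockdown, 9 of these genes were higher and 4 lower in Pre, 3 were higher and 10 lower at MCE, and 5 were higher and 8 lower at Diff. The medians were 0.08, -0.19 and -0.14, beside 0.08, 0.05 and 0.03 for all genes. Averaged over stages 8 were higher and 9 lower, with a median of 0.12, beside 24.5% higher and 18.3% lower of all genes. Of all genes 15.9% were higher and 12.3% lower in Pre, 10.5% and 7.26% at MCE, and 11.9% and 9.31% at Diff. At MCE the lowest were Mgp, a matrix calcification inhibitor, at -3.47 (adjusted p = 2.21e-05), and Glul at -1.98 (adjusted p = 3.6e-05). The highest were Rgs2 at 1.19 (adjusted p = 0.000685) and Irs2, an insulin signalling adaptor, at 1.16 (adjusted p = 0.0105). The step from Pre to MCE differed between lines for 7 of the 25 genes, beside 5.11% of all genes, a share that moved with the shScram Pre libraries as given above. It was smaller in shFto cells for 6 (among them Lcn2, -2.12, and Errfi1, -2.06) and larger for 1, Lpin1 (1.31).

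Inflammatory genes that the receptor is known to restrain were the next group. Of 16 on the list, 12 were tested, and 0 rose and 9 fell from Pre to MCE in shScram cells, with a median of -1.17, beside 12.2% and 26.9% of all genes. In shFto cells 5 rose and 6 fell, with a median of -0.82, beside 8.8% and 19.9%. Cxcl10, an interferon-inducible chemokine gene, fell by 3.85 in shScram cells (adjusted p = 1.19e-06), from 24.6 and 21.2 TPM to 0.651 and 0.655 TPM. In shFto cells it fell by 2.86 (adjusted p = 7.55e-06), from 86.9 and 87.0 TPM to 10.9 and 11.4 TPM. Cxcl5, a neutrophil chemokine gene, fell by 2.04 in shScram cells (adjusted p = 4.32e-05) and rose by 0.98 in shFto cells (adjusted p = 0.00276), a difference of 3.02 (adjusted p = 0.000643). Il6, which encodes interleukin 6, rose by 1.77 in shFto cells (adjusted p = 0.00175), from 2.23 and 2.14 TPM to 9.27 and 10.6 TPM.

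With the knockdown 8 of these 12 genes were higher and 1 lower in Pre, 9 higher and 0 lower at MCE, and 8 higher and 1 lower at Diff. Of all genes 15.9%, 10.5% and 11.9% were higher and 12.3%, 7.26% and 9.31% lower at these stages. The medians were 0.70, 1.41 and 1.16, beside 0.08, 0.05 and 0.03 for all genes tested. At MCE Cxcl10 was 2.88 higher (adjusted p = 2.12e-05) and Cxcl5 2.65 higher (adjusted p = 2.5e-05). The lower gene in Pre was Vcam1 (-0.98) and at Diff it was Csf1 (-0.55). Macrophage markers, which summed to at most 11.0 TPM, were highest in shFto Pre, at 9.49 to 11.0 TPM, against 5.15 to 8.39 TPM in shScram Pre. The largest part was Lyz2, at means of 7.10 and 3.81 TPM in these groups. Cd68 averaged 2.46 and 2.02 TPM and Csf1r 0.676 and 0.922 TPM. Ptprc and Adgre1 were at 0 TPM in shFto Pre.

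IBMX was given together with dexamethasone, and 11 genes known to answer cAMP were therefore read beside the members. From Pre to MCE 5 rose and 1 fell in shScram cells, and 7 rose and 0 fell in shFto cells, beside 12.2% and 26.9% of all genes in shScram and 8.8% and 19.9% in shFto cells. The medians were 0.07 and 1.27, beside -0.17 and -0.18 for all genes. Nr4a1, an orphan nuclear receptor gene, rose by 2.43 in shScram cells (adjusted p = 8.91e-05) to 35.8 and 38.0 TPM and by 4.03 in shFto cells (adjusted p = 6.46e-06) to 295 and 310.2 TPM. Its relative Nr4a2 was 3.04 higher in shFto cells at MCE (adjusted p = 2.21e-05). Pde4d, a cAMP phosphodiesterase gene, rose by 2.74 and 3.78 in the 2 lines (adjusted p = 3.89e-06 and 9.64e-07). The gene that fell in shScram cells was Ppargc1a, by 1.83 (adjusted p = 0.0013). At MCE 7 of the 11 genes were higher and 0 lower with the knockdown, beside 10.5% and 7.26% of all genes.

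**Figure D5:**
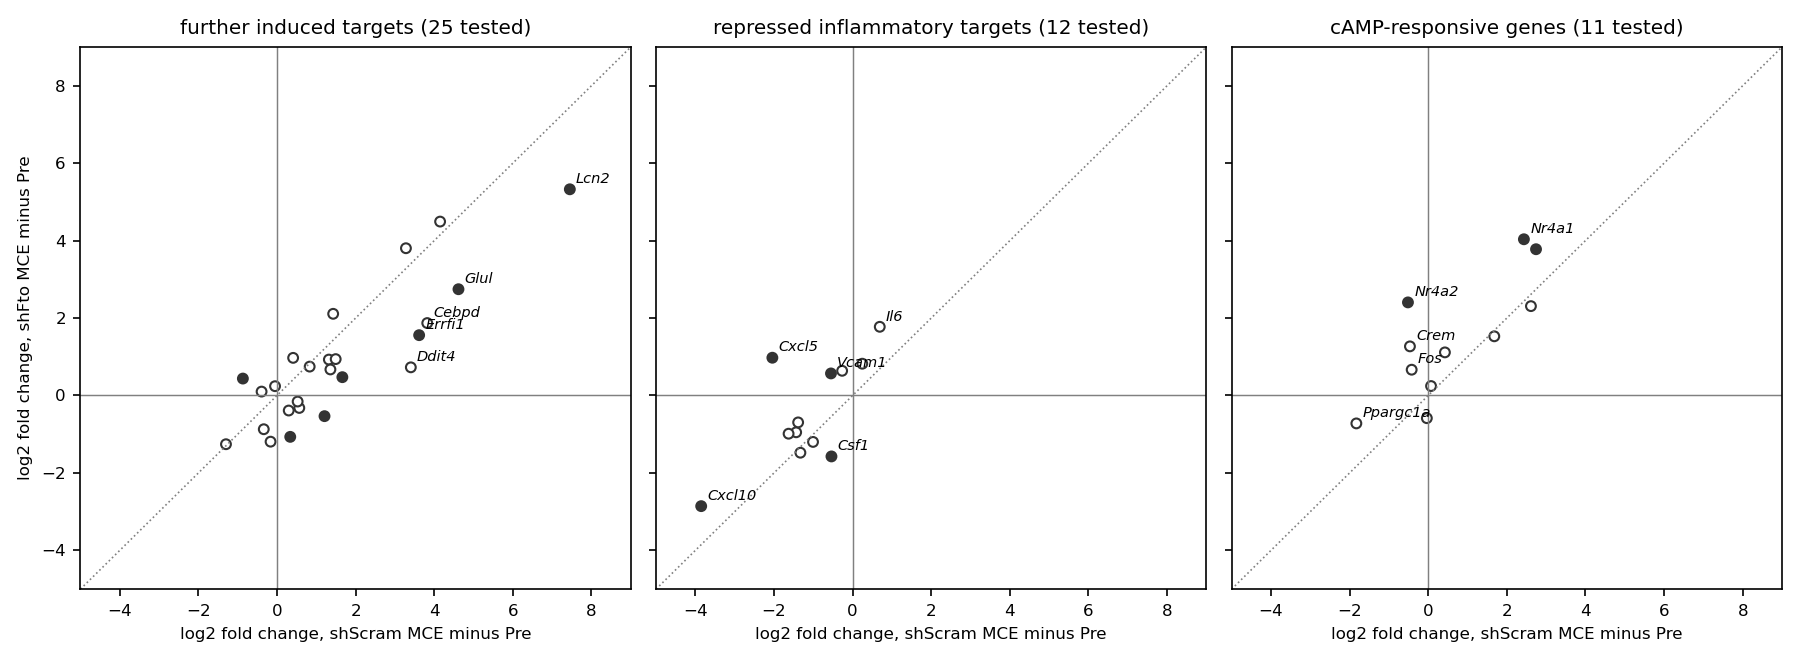
Log2 fold change of TPM + 1 from Pre to MCE in shScram cells (horizontal) and shFto cells (vertical) for further induced targets, inflammatory targets and cAMP-responsive genes, with 1 point per tested gene and filled points where the lines differed at an adjusted p under 0.05. Names mark the 5 genes of each panel farthest from the dotted line of equal change.

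The genes whose pattern over the 12 libraries was most like that of 3 members were also listed, by Pearson's r of log2(TPM + 1) among 10798 genes with a mean of at least 5 TPM. For Nr3c1 they were Crbn (0.985), Pus7 (0.983) and Kat2b (0.978). For Fkbp5 they included Peli2 (0.993) and Folh1 (0.985), and for Hsd11b1 they were Mxi1 (0.991), Slc10a6 (0.984) and Stat3 (0.983). The 12 points of each correlation come from 6 groups, share one table and include the stage and line differences described above, so these values are descriptions.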

How the data were processed

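RNA-seq was read from 12 libraries of 3T3-L1 cells, 2 for each line (shScram, shFto) at Pre, MCE and Diff, in total RNA fragmented before library construction. The TPM values were deposited by the authors, who trimmed reads with Trim Galore 0.6.5, aligned them with HISAT2 2.1.0 to GRCm38 and quantified genes with StringTie 2.1.4. Whether strand was used in counting is not given in the sources used here, and TPM keeps no depth, so depth and counting error are unknown. From the deposited table of 55487 genes, log2(TPM + 1) of the 15968 genes with at least 1 TPM in at least 2 libraries was fitted to the 6 groups with limma 3.58.1 (R 4.3.3), with a trend and 6 residual degrees of freedom, and p-values were adjusted by the Benjamini-Hochberg method over all genes tested. Figures and sequence searches used Python 3.11.15. All 10 members were named, and of each further list at most 2 genes with the highest and 2 with the lowest log2 fold change among those called with a mean of at least 5 TPM in the higher group. Hsd11b2 and genes overlapping a member were named after their values were seen. The members and lists were chosen with earlier results of these data known. Replicate numbers were not used to pair the samples in the reported fit, and the labels do not say whether they pair them. The fit was tested on simulated data with an equal spread in all 6 groups, and only for the knockdown at MCE. That test cannot speak to the wider spread of shScram Pre. In 21 alternative settings the pseudocount (0.1), the filter, the scaling, the libraries fitted, the trend and a replicate block were varied, each of the 12 libraries was left out in turn, and GC content was corrected in 20 bins, the last chosen after seeing the data. Promoter windows came from RefSeq on GRCm38.p6, gene coordinates and coding sequences from GENCODE M21 on GRCm38, in which 99.5% of the identifiers were found. No window of Nr3c1 or Zbtb16 was searched. A gene of the likeness ranking is not reported here.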

Additional observations from a re-analysis of the deposited data

Results flagged for a closer look

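The change of 9 member steps differed between shFto and shScram cells in the interaction test (limma, Benjamini-Hochberg adjusted). For the step from Pre to MCE the shFto change minus the shScram change on the log2 scale was -1.46 for Fkbp5 (adjusted p = 0.0101), -2.74 for Tsc22d3 (adjusted p = 0.000182), 1.50 for Sgk1 (adjusted p = 0.00186), -2.74 for Dusp1 (adjusted p = 0.00314), 0.99 for Mt1 (adjusted p = 0.0377) and 1.58 for Hsd11b1 (adjusted p = 0.0073). For the step from MCE to Diff it was 1.28 for Tsc22d3 (adjusted p = 0.0052), 1.49 for Zbtb16 (adjusted p = 0.0042) and 1.14 for Hsd11b1 (adjusted p = 0.0436). With 2 libraries per group, no group was large enough to be tested for a single outlying library.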

How the results depend on the processing

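Of 78 member calls, 45 were kept in every alternative and 54 whenever 1 library was left out. Fits on the libraries of a comparison alone gave 4 member calls in place of 10 for shScram Pre to MCE, 5 in place of 3 for shScram MCE to Diff, 4 in place of 8 for shScram Pre to Diff, 10 in place of 8 for shFto Pre to MCE, 8 in place of 5 for shFto MCE to Diff, and 3 in place of 6 and 6 in place of 3 for the difference between lines at the first and second step. For the knockdown in Pre, limma on the 4 Pre libraries alone called 0 members in place of 6 and 0 genes in place of 4510, and 4 members and 2790 genes had an unadjusted p under 0.05. GC correction gave 5 members for shScram MCE to Diff and 6 for the difference between lines at that step.

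When 1 library was left out, member calls ran from 8 to 10 for shScram Pre to MCE, 1 to 6 for shScram MCE to Diff, 6 to 8 for shScram Pre to Diff, 6 to 10 for shFto Pre to MCE, 3 to 8 for shFto MCE to Diff and 7 to 9 for shFto Pre to Diff. They ran from 2 to 9 for the knockdown in Pre, 4 to 9 at MCE, 5 to 9 at Diff and 6 to 9 averaged, and from 4 to 9 and 2 to 6 for the difference between lines at the first and second step.

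Directions turned only for changes that had not passed the test. Under median-ratio scaling Per1 and Dusp1 were at -0.10 and -0.14 for shScram MCE to Diff, Nr3c1 at -0.012 for shScram Pre to Diff, Tsc22d3 at 0.0094 for shFto Pre to MCE and Dusp1 at -0.036 for shFto MCE to Diff. After GC correction Per1 and Dusp1 were at -0.052 and -0.074 for shScram MCE to Diff, Dusp1 at -0.024 for shFto MCE to Diff, Per1 at -0.26 for the knockdown in Pre, and Nr3c1 and Per1 at -0.24 and 0.39 for the difference between lines at the first step. Quantile normalization put Mt1 at -0.033 for that difference at the second step. With 1 library left out, Dusp1 ran from -0.012 to 0.24 for shScram MCE to Diff, Nr3c1 from -0.13 to 0.20 for shScram Pre to Diff, Per1 from -0.057 to 1.23 for the knockdown in Pre and Zbtb16 from -0.028 to 0.0096 for the averaged knockdown. The difference between lines then ran from -0.12 to 0.20 for Nr3c1, -0.92 to 0.37 for Per1 and -0.53 to 0.95 for Mt2 at the first step, its ends for Per1 and Mt2 being the values without replicate 1 or 2 of shScram Pre. At the second step it ran from -0.033 to 0.22 for Mt1 and -0.092 to 0.16 for Dusp1. The cause was not tested.

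With the replicate number as a block, 75 of the 78 calls were kept, and those lost were Nr3c1 for shFto Pre to MCE (-0.45, adjusted p = 0.067), Mt1 for the difference between lines at the first step (0.99, adjusted p = 0.058) and Hsd11b1 at the second (1.14, adjusted p = 0.0657). Same-numbered libraries deviated together with r above 0.1 in 2 of 15 pairs of groups (-0.29 to 0.17). The labels do not say whether they share a culture or day, and these correlations cannot decide it. For the knockdown, the highest member counts with 1 library left out came without a shScram Pre library, where more of all genes passed too. The lowest count in Pre came without replicate 1 of shFto Pre, where fewer of all genes passed. Counts over all genes moved in other settings as well. Fitted alone, they went from 6236 to 504 for shScram Pre to MCE and from 4327 to 414 for shScram Pre to Diff. For shScram MCE to Diff they went from 4023 to 6454 alone and 5381 after GC correction. In shFto cells they went from 4585 to 7999 alone for Pre to MCE and from 4256 to 8684 alone for MCE to Diff. For the difference between lines at the first step they went from 816 to 239 alone and 1701 after GC correction. At the second step they went from 397 to 2694 and 1287. Depth is unknown, and 2 libraries per group limit what could be called.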
